A study of Mus musculus with 6 samples.

Results

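The genes described here encode the collagens, laminins and other proteins of the extracellular matrix, together with the proteases that cut them. Members were taken by symbol: the numbered collagen chains, the laminin alpha, beta and gamma chains, the Mmp, Timp and Adamts genes followed by a number, and Fn1, Nid1, Nid2, Sparc, Dcn, Lum, Bgn, Lox and Hspg2. The rule gave 103 of the 24434 gene symbols in the deposited count table. RNA came from whole mouse kidney, with 3 libraries of genotype db/db and 3 of genotype db/m, all from animals on normal chow. In the design text db/db is the diabetic model, with db/m as control. Mice with a pair of db alleles lack a working long form of the leptin receptor and become obese and diabetic, and the db alleles act in every tissue. The sources used here do not give age, sex or strain. They also do not say that the 3 libraries of a group are from different animals, so the spread behind each p-value is that between libraries and may be technical.

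The kidney holds matrix in basement membranes and in the space between tubules. Basement membranes surround tubules and vessels and form the filter of the glomerulus, and are built of a type IV collagen network and a laminin network joined by nidogens and the heparan sulfate proteoglycan perlecan. The interstitium holds fibrils of type I, III and V collagen made mostly by fibroblasts and pericytes, and their excess is what fibrosis means. Matrix metalloproteinases and ADAMTS proteases cut these proteins, and TIMPs inhibit the proteases. In diabetic kidney disease the glomerular basement membrane thickens and mesangial matrix expands.

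Library totals ranged from 25937756 to 35931140 counts. The 103 matrix genes took 0.315% to 0.405% of the counts in db/db libraries and 0.288% to 0.381% in db/m libraries, so the groups overlapped in the total share. Values below are CPM, the usual depth-scaled read count, computed with TMM-adjusted library sizes and listed in the order of replicates 1, 2 and 3. The proximal tubule markers Lrp2, Slc34a1, Slc5a2 and Cubn summed to 8097 to 10431 CPM in db/db libraries and 6047 to 8492 CPM in db/m libraries. A count of 0 allows a level of up to 0.120 CPM in db/db replicate 1, the library with the smallest TMM-adjusted size. This limit was taken as 3 counts and covers counting error only. In bulk tissue, more cells of a type and more RNA per cell cannot be told apart.

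Of the 103 matrix genes, 81 had enough counts to be tested and 24 changed, where a change is a Benjamini-Hochberg adjusted p below 0.05 in the quasi-likelihood test of edgeR, adjusted over all 16373 tested genes. In db/db kidneys 18 rose and 6 fell. That is 22.2% and 7.41% of the tested members, beside 13.1% of all tested genes that rose and 10.8% that fell, and 24% called in either direction. The same shares of all tested genes stand beside the counts by family below. Among the tested members all db/db libraries lay above all db/m libraries for 20 genes and below them for 10, where 22.4% and 22.2% of all tested genes did so. Collagens made up much of the rise, with 12 of 33 tested chains higher and 3 lower (36.4% and 9.09%). Among the 12, Col19a1, Col6a4 and Col6a6 passed the low-count filter through their db/db counts, so each was tested only because it was high there. The median log2 fold change, db/db over db/m, was 0.03 for the tested members and -0.06 for all tested genes.

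**Figure D1:**
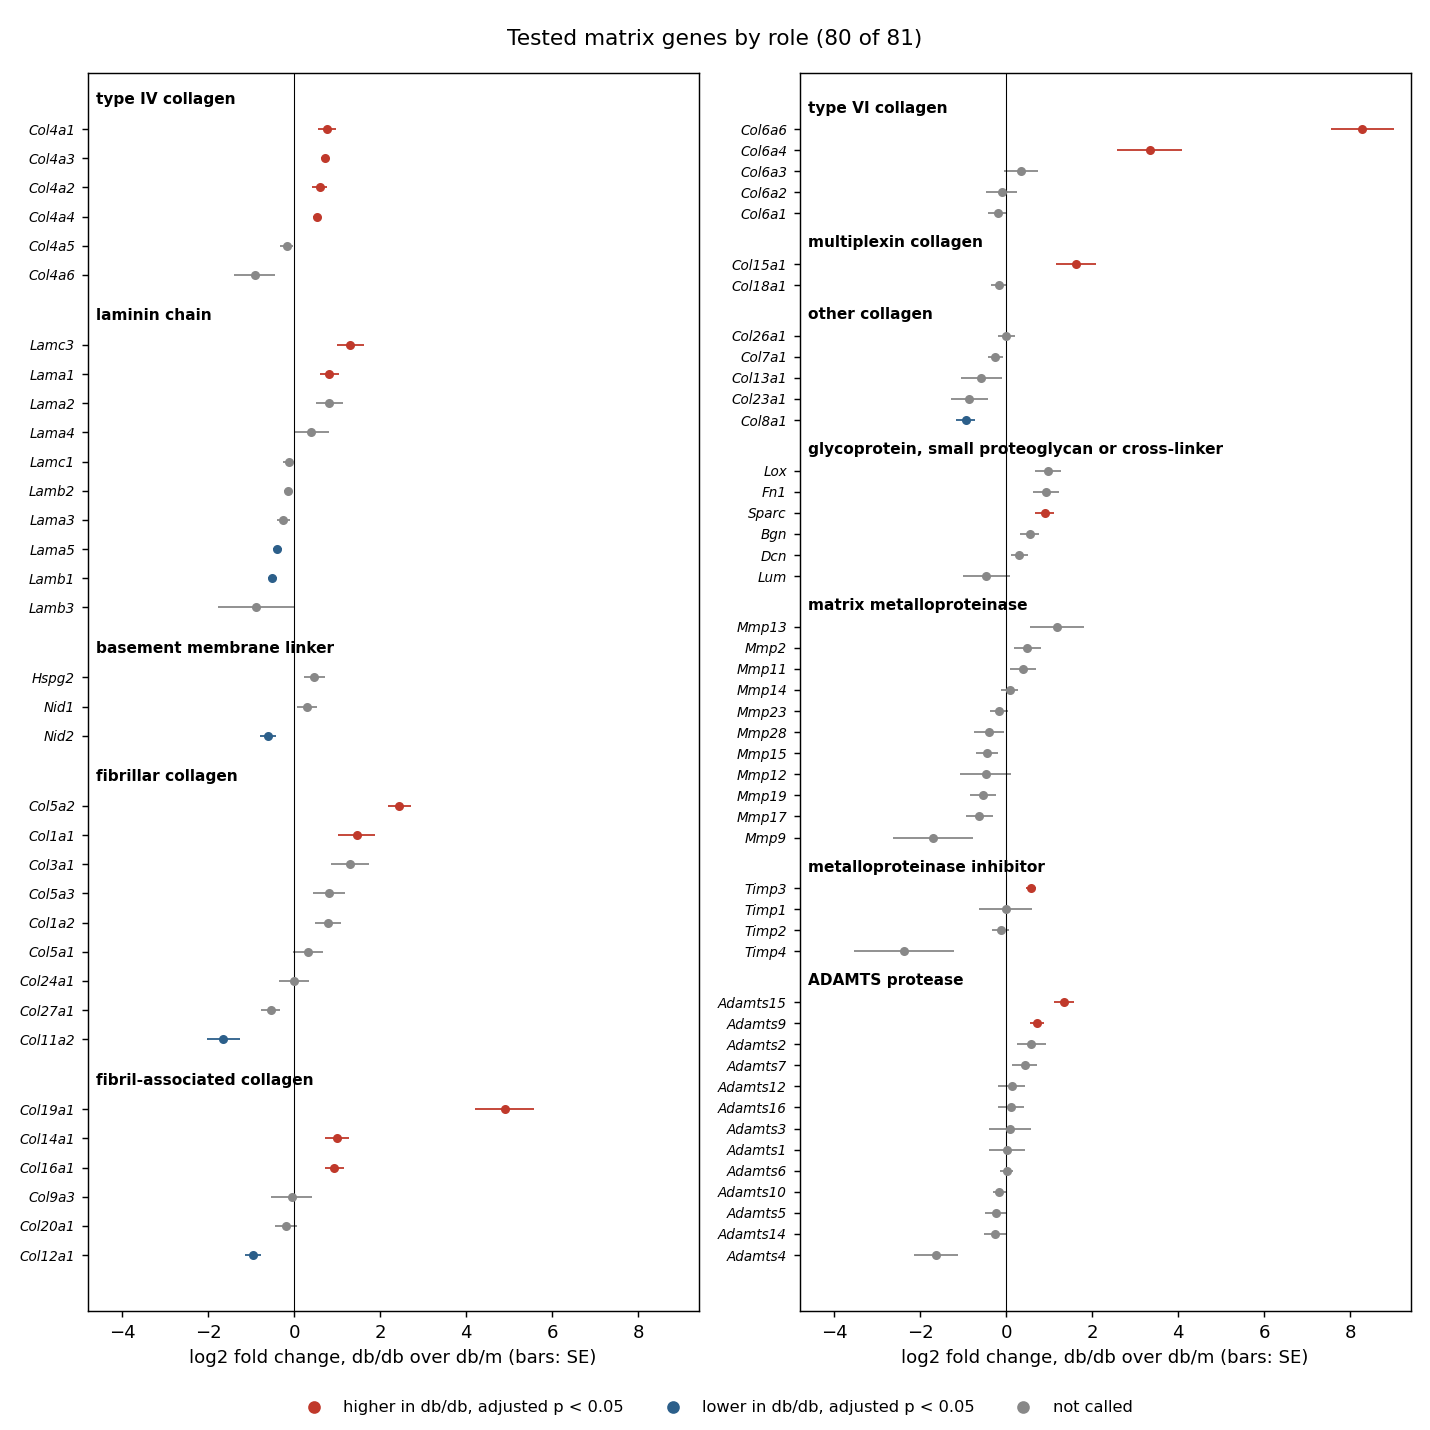
Log2 fold change, db/db over db/m, with its SE for 80 of the 81 tested matrix genes, grouped by role and ordered by size. Red points were called higher (18), blue points lower (6) and grey points were not called, and 4 of the 6 type IV collagen chains are red.

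The balance of directions depended on how libraries were scaled. With total counts only, in place of TMM factors, 7 members rose and 11 fell. That is 8.64% and 13.6% of the tested members, beside 6.55% of all tested genes that rose and 29.8% that fell, and the median over all tested genes moved to -0.32. The TMM fold changes below are relative to a median near 0. None of the 24 called members changed sign under that scaling or any of the other 14 alternatives in which they could be fitted. Leaving out single libraries moved the counts as well, and the share of members that rose was not above that of all genes in every fit. Without db/db replicate 1, 7 members rose (8.64%, beside 8.70% of all tested genes) and 4 fell. Without db/db replicate 2, 9 rose (11.1%, beside 8.67%) and 2 fell. Without db/db replicate 3, 14 rose (17.1%, beside 8.15%) and 2 fell. The shares were thus near equal without db/db replicate 1. Without db/m replicate 1, 10 rose (12.2%, beside 11.97%) and 5 fell. Without db/m replicate 2, 9 rose (10.98%, beside 8.36%) and 3 fell. Without db/m replicate 3, 27 rose (32.9%, beside 11.7%) and 3 fell. The shares were also near equal without db/m replicate 1, and furthest apart without db/m replicate 3. Without db/db replicate 3 and db/m replicate 3 together, 21 rose (25.6%, beside 6.40%) and 1 fell (1.22%, beside 4.02%). When 1 library was left out, the falls were 2.44% to 6.10% of members, beside 5.10% to 9.11% of all tested genes.

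Type IV collagen, the network-forming collagen of basement membranes, was higher in 4 of its 6 chains. Col4a1 and Col4a2 encode the chains found in nearly all basement membranes. Col4a1 stood at 201, 144 and 139.9 CPM in db/db libraries and 78.5, 86.0 and 121 CPM in db/m libraries. Its partner Col4a2 had 191, 147 and 125 CPM in db/db and 87.0, 103 and 117 CPM in db/m. For these chains the db/db group lay above the db/m group without overlap, db/db replicate 1 was the highest library and db/m replicate 3 the highest control. Their log2 fold changes were 0.76 (SE 0.20, adjusted p = 0.0338) and 0.59 (SE 0.17, adjusted p = 0.0461).

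Col4a3 and Col4a4 encode chains that, with the product of Col4a5, form the mature network of the glomerular filter, and mutations in them cause Alport syndrome in humans. Col4a3 was at 161, 154 and 173 CPM in db/db and 96.0, 92.1 and 110.0 CPM in db/m. Col4a4 had 214, 231 and 217 CPM in db/db against 142, 151 and 166 CPM in db/m. The spread within groups was small beside the gap between them. The log2 fold changes were 0.71 (SE 0.10, adjusted p = 0.00291) and 0.53 (SE 0.09, adjusted p = 0.00627), and each stayed called when any single library was left out.

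The remaining chains did not follow. Col4a5, also part of that network, had 22.3, 18.7 and 21.2 CPM in db/db and 19.95, 21.3 and 29.0 CPM in db/m, with overlap (log2 fold change -0.18, SE 0.16, adjusted p = 0.444). Col4a6, a chain of some smooth muscle and epithelial basement membranes, averaged 2.17 ± 1.48 CPM in db/db and 4.10 ± 1.30 CPM in db/m (SD, n = 3 each) and did not pass (adjusted p = 0.199), but was called lower without db/db replicate 3 (adjusted p = 0.0364). The log2 ratio of Col4a5 to Col4a1 counts was -2.95 ± 0.23 in db/db and -2.02 ± 0.04 in db/m (SD, n = 3 each), a difference of -0.93. An exact two-sided permutation test gave p = 0.1, the smallest that 3 against 3 allows. The ratio of Col4a3 to Col4a1 differed by -0.05 between groups, within the replicate spread of 0.32 in db/db and 0.21 in db/m (SD of log2 ratios).

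Calls on Col4a1 and Col4a2 were less stable than those on Col4a3 and Col4a4. Col4a1 was called without db/m replicate 3 (adjusted p = 0.0143) but without no other single library, with adjusted p up to 0.0994. Col4a2 kept its call only without replicate 3 of either group, with adjusted p up to 0.113 otherwise. With total counts only Col4a3 alone of the 6 chains was called (log2 fold change 0.45, adjusted p = 0.0166). Podocytes are the source of the Col4a3 and Col4a4 chains in the glomerulus, and their markers Nphs1, Podxl, Synpo and Wt1 had log2 fold changes of -0.55, -0.31, -0.19 and -0.63, none called by edgeR (adjusted p 0.0917 to 0.479). Nphs1 was lower at an unadjusted edgeR p of 0.0304, and DESeq2 called some podocyte markers lower. The endothelial markers Pecam1, Cdh5, Kdr, Emcn and Ehd3 summed to 193 to 232 CPM in db/db and 124 to 219 CPM in db/m, and 0 of 5 were called by edgeR, while 2 were higher at an unadjusted p below 0.05 and 2 were called higher by DESeq2. The part of these cell types in the type IV collagen result was not tested.

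Type IV collagen genes lie in pairs whose starts face each other, Col4a1 with Col4a2, Col4a4 with Col4a3 and Col4a6 with Col4a5. Promoter windows of Col4a1, Col4a2 and Col4a4 are shown because both genes of the first pair and of the second rose. Each window holds 300 bases around the RefSeq start in GRCm38.p6, on the gene's own strand. Capitals mark matches to 3 motifs on either strand. The GC box was searched as GGGCGG. For the CCAAT box the letters of its name were used. The TATA box was searched as TATAAA. The windows of Col4a1 and Col4a2 overlap by 78 bases, read on opposite strands.
Col4a1, chr8:11312777-11313076, minus strand: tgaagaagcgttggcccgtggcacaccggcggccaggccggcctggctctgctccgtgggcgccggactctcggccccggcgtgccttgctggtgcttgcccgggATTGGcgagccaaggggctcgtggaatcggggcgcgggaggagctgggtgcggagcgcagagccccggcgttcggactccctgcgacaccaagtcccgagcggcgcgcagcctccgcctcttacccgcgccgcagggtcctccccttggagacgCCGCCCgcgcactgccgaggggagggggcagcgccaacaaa
Col4a2, chr8:11312555-11312854, plus strand: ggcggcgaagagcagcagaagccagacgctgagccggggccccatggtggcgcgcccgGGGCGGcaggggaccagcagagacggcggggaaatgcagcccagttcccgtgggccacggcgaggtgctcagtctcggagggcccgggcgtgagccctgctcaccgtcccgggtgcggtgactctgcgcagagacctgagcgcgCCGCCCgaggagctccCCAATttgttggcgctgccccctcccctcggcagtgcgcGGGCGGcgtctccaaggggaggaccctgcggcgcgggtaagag
Col4a4, chr1:82586800-82587099, minus strand: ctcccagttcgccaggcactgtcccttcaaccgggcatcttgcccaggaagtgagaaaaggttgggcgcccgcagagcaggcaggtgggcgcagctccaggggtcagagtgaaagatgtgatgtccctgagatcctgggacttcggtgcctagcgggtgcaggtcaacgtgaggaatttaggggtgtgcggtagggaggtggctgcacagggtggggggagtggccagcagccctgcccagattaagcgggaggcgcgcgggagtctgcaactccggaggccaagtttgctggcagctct

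The Col4a1 window held 1 GC box and 1 CCAAT box, the Col4a2 window 3 and 1, and the Col4a4 window none of these motifs. The GC box of Col4a1 lies in the overlap and is the same site as the last GC box of the Col4a2 window, read on the other strand. None of the windows shown held a TATA box. Over all 32851 RefSeq promoter windows, 35.7% held a GC box, 37.4% a CCAAT box and 13.6% a TATA box. Of the 70 matrix genes matched by symbol to a window, 45 had a GC box, 21 a CCAAT box and 13 a TATA box in at least 1 window. These counts are of genes and the shares before them are of windows, so they are not a like comparison. These are matches of letters, not binding sites. In the annotation used for names, Col4a1 and Col4a2 overlap on opposite strands, and the sources used here do not say whether counting used strand.

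Laminins are trimers of an alpha, a beta and a gamma chain. Of 11 chains, 2 rose and 2 fell (18.2% each), beside 13.1% of all tested genes that rose and 10.8% that fell, and 7 were not called. Lama5, the alpha chain of mature tubular and glomerular basement membranes, had 128, 117 and 104 CPM in db/db against 167, 138 and 152 CPM in db/m (log2 fold change -0.39, SE 0.11, adjusted p = 0.0406). Lamb1, a widely used beta chain, was at 92.6, 80.2 and 77.0 CPM in db/db and 104, 124 and 128 CPM in db/m (-0.51 on the log2 scale, SE 0.11, adjusted p = 0.0177). Both were lower in all db/db libraries than in any db/m library. Lama5 lost its call when any single library was left out (adjusted p 0.0517 to 0.134), and Lamb1 without replicate 2 of either group or db/db replicate 3 (adjusted p up to 0.0729).

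Lama1, the alpha chain of early embryonic basement membranes that the kidney tubule retains in part, was at 28.5, 19.1 and 15.8 CPM in db/db and 12.2, 13.3 and 10.5 CPM in db/m. Its log2 fold change was 0.82 (SE 0.22, adjusted p = 0.036), and it was called without db/db replicate 3 but without no other single library (adjusted p up to 0.0872). Lamc3, a gamma chain of restricted expression, had 31.5, 29.5 and 18.2 CPM in db/db and 8.65, 7.92 and 15.6 CPM in db/m. Its log2 fold change was 1.30 (SE 0.31, adjusted p = 0.023), with db/m replicate 3 close to the lowest db/db library. Its call ended without replicate 1 or 2 of either group (adjusted p up to 0.0743).

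The log2 ratio of Lama5 to Lama1 counts was 2.50 ± 0.29 in db/db and 3.67 ± 0.26 in db/m (SD, n = 3 each), a difference of -1.17. Lama5 was lower and Lama1 higher in every db/db library than in any db/m library, so this ratio had to separate. The exact two-sided permutation p of 0.1, the smallest possible, was thus fixed by those values and adds nothing to them. Lamb2, the beta chain of the adult glomerular filter, averaged 67.0 ± 3.95 CPM in db/db and 74.5 ± 5.56 CPM in db/m and was not called (adjusted p = 0.24, and lower with total counts only). Its ratio to Lamb1 was -0.31 ± 0.18 in db/db and -0.67 ± 0.23 in db/m on the log2 scale (exact permutation p = 0.2). Lamc1, the common gamma chain, was near equal at 30.5 ± 3.61 CPM in db/db and 33.0 ± 4.56 CPM in db/m (log2 fold change -0.12, SE 0.13, adjusted p = 0.551). Lamb3, a chain of epithelial anchoring laminin, reached 12.8 CPM in db/db replicate 3 and 30.1 CPM in db/m replicate 3 and 5.18 CPM or less elsewhere. The urothelial markers Upk1a, Upk1b, Upk2, Upk3a and Krt5 were also highest within each group in replicate 3, with sums of 43.2 CPM in db/db and 83.6 CPM in db/m, and their part in the Lamb3 levels was not tested.

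Of the 3 linkers of the basement membrane 1 fell. Nid2, a nidogen that bridges laminin and type IV collagen, fell, with 12.2, 7.77 and 9.42 CPM in db/db against 13.8, 15.3 and 15.8 CPM in db/m (log2 fold change -0.61, SE 0.18, adjusted p = 0.0467). It kept this call without db/db replicate 1 only (adjusted p up to 0.131 without another library). Nid1, the other nidogen, averaged 27.0 ± 6.78 CPM in db/db and 21.9 ± 5.12 CPM in db/m (adjusted p = 0.359). Hspg2, which encodes perlecan, was at 84.9, 82.0 and 68.3 CPM in db/db and 42.0, 47.0 and 80.8 CPM in db/m, with db/m replicate 3 inside the db/db range (adjusted p = 0.193).

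**Figure D2:**
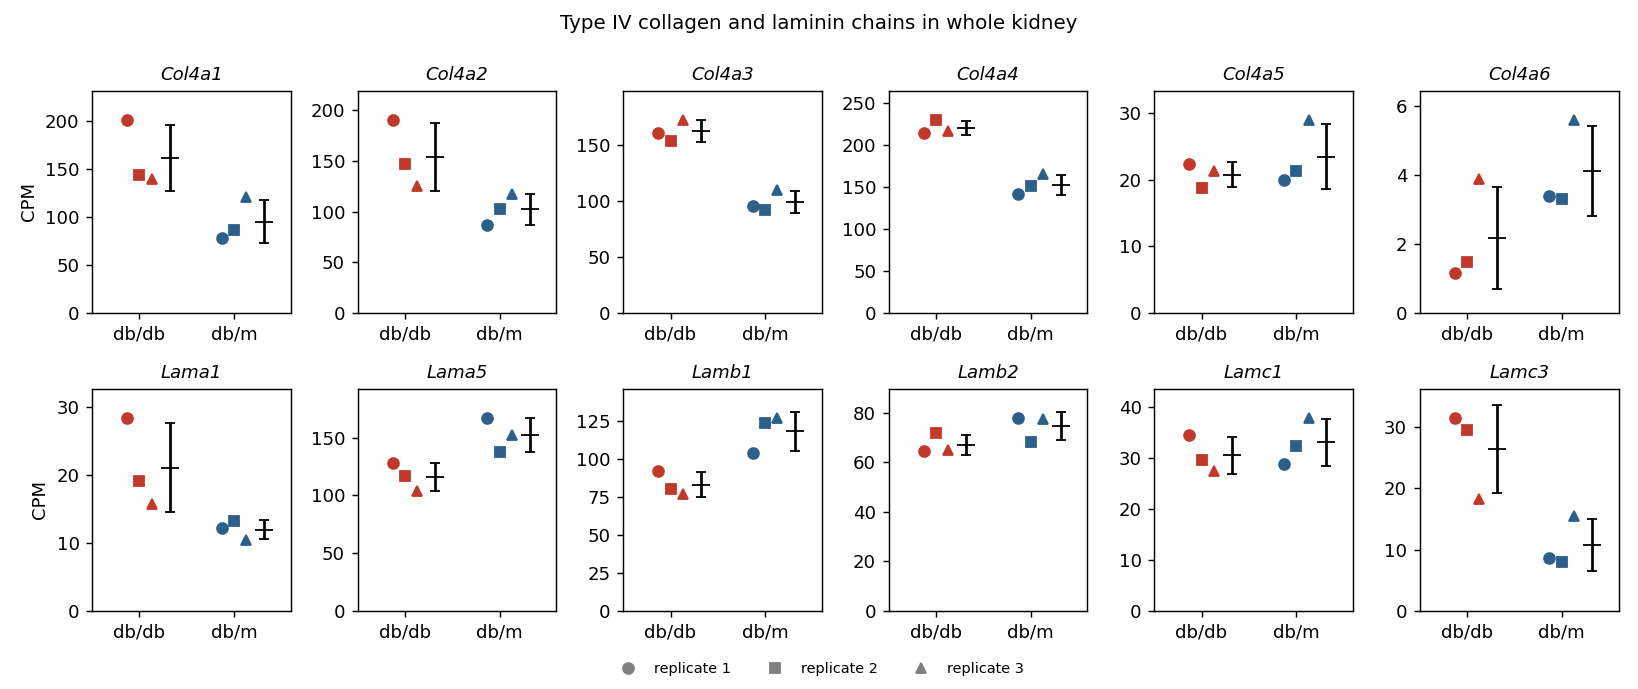
CPM of type IV collagen and laminin chains in each library, db/db left and db/m right, with each gene on its own axis from 0. Symbols give the replicate and black bars the mean and SD of 3 libraries. Col4a1 to Col4a4, Lama1 and Lamc3 lie higher in db/db, Lama5 and Lamb1 lower, and Col4a5, Col4a6, Lamb2 and Lamc1 overlap.

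Among fibrillar collagens, 2 of 9 tested chains rose, 1 fell and 6 were not called. Their summed level overlapped between groups, at 226, 228 and 165 CPM in db/db and 187, 179 and 196 CPM in db/m. Col5a2, a chain of the type V collagen that sets fibril diameter, was at 18.2, 15.1 and 12.6 CPM in db/db and 2.18, 2.38 and 3.86 CPM in db/m. The groups were far apart, with 15.3 ± 2.80 CPM in db/db and 2.81 ± 0.920 CPM in db/m, which is 2.44 on the log2 scale (SE 0.26, adjusted p = 0.00139). This call held under all 15 alternatives, with values of 2.18 to 2.87. Col5a1, whose product pairs with that of Col5a2 in type V collagen, had 8.35 ± 2.15 CPM in db/db and 6.65 ± 3.16 CPM in db/m and was not called (log2 fold change 0.33, SE 0.35, adjusted p = 0.523).

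The type I and III collagens, the bulk of scar collagen, separated less cleanly. Col1a1 was at 26.4, 18.4 and 16.3 CPM in db/db and 3.96, 5.62 and 12.8 CPM in db/m (log2 fold change 1.45, SE 0.42, adjusted p = 0.0448). Col3a1 had 33.7, 21.3 and 18.1 CPM in db/db and 5.16, 7.69 and 16.8 CPM in db/m, without overlap but short of the threshold (1.30 on the log2 scale, SE 0.44, adjusted p = 0.0688). Col1a2, the second chain of type I collagen, had 53.7, 39.8 and 36.3 CPM in db/db and 16.9, 20.7 and 37.6 CPM in db/m, with db/m replicate 3 inside the db/db range (adjusted p = 0.0981). In each of these genes db/db replicate 1 was the highest of its group and db/m replicate 3 the highest of its own. Without db/m replicate 3 all 3 genes were called, with log2 fold changes of 2.09 for Col1a1 (adjusted p = 0.00502), 1.93 for Col3a1 (adjusted p = 0.011) and 1.21 for Col1a2 (adjusted p = 0.0103). Without any other single library Col1a1 was not called, with adjusted p up to 0.128.

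Col3a1 and Col5a2 are neighbours whose ends face each other. Col11a2, a minor fibrillar chain best known from cartilage, fell, with 0.482, 0.832 and 0.840 CPM in db/db and 1.78, 1.75 and 3.25 CPM in db/m (log2 fold change -1.65, SE 0.38, adjusted p = 0.0209), a call lost when any db/db library was left out (p up to 0.0662). Col27a1, a fibrillar chain with high counts here, had 77.1, 119.6 and 70.0 CPM in db/db and 149.7, 133 and 107 CPM in db/m, did not pass (adjusted p = 0.108), and was called lower with total counts only.

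**Figure D3:**
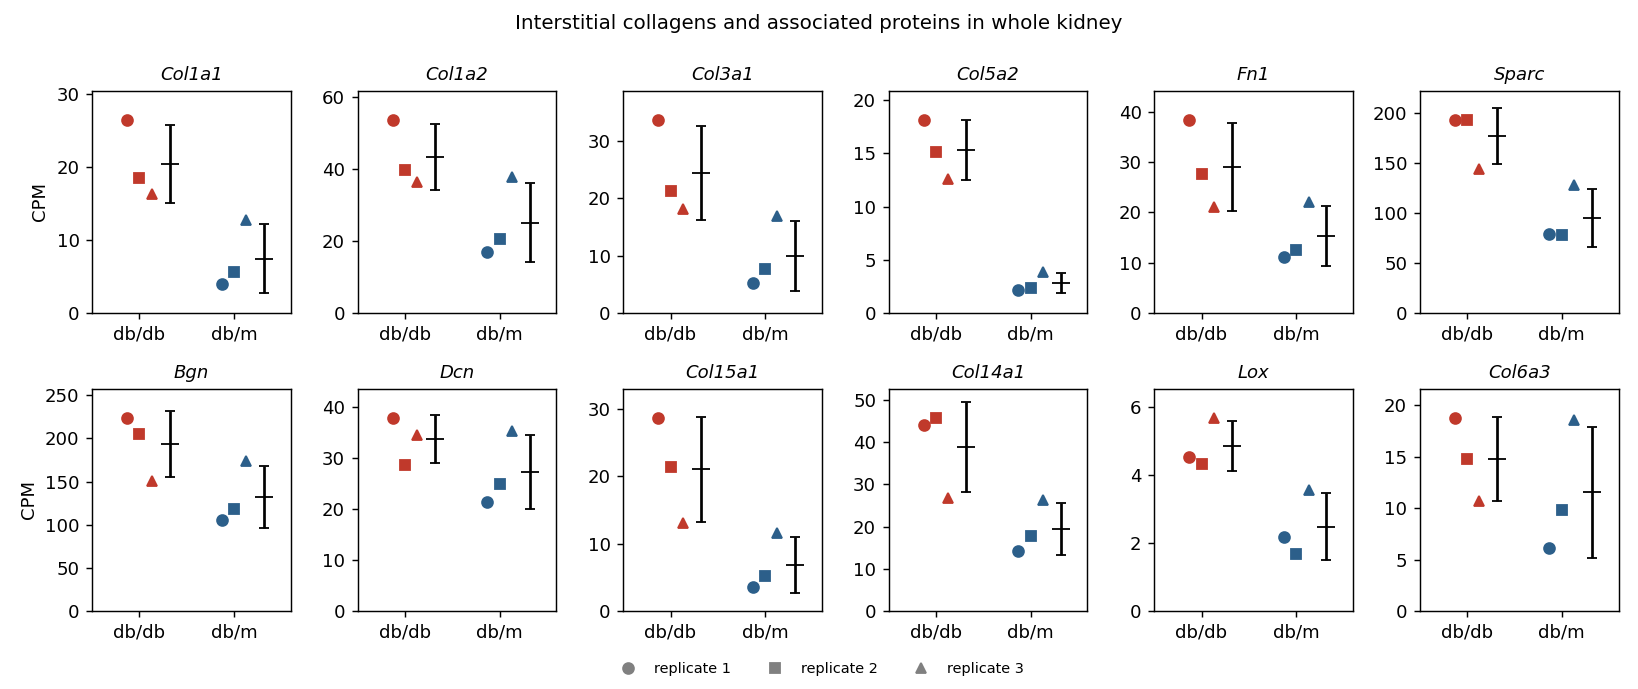
CPM of interstitial collagens and associated proteins in each library, db/db left and db/m right, each gene on its own axis from 0, with mean and SD of 3 libraries. In most panels db/m replicate 3 (triangle) lies above the other db/m libraries and near the lowest db/db values, and Col5a2 shows the clearest gap.

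Fibril-associated collagens, which decorate fibrils, went both ways, with 3 of 6 tested higher and 1 lower. Col14a1 was at 44.2, 45.8 and 26.7 CPM in db/db and 14.3, 17.7 and 26.3 CPM in db/m (log2 fold change 0.999, SE 0.28, adjusted p = 0.0376). Col16a1 had 18.9, 16.3 and 16.4 CPM in db/db and 5.96, 10.8 and 10.3 CPM in db/m (0.93, SE 0.23, adjusted p = 0.0248). Neither gene showed overlap, but for Col14a1 db/m replicate 3 nearly reached db/db replicate 3. Col14a1 was called without db/m replicate 3 or db/db replicate 3 but without no other single library (adjusted p up to 0.115), and Col16a1 lost its call when any db/db library was left out (up to 0.0767). Col12a1, an associated collagen of dense tissue, fell, with 5.18, 4.40 and 6.46 CPM in db/db and 10.1, 10.8 and 10.3 CPM in db/m (-0.96, SE 0.18, adjusted p = 0.00974). It was the 1 fallen member of 6 whose call held under all 15 alternatives.

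Col19a1 and Col6a6 were nearly silent in db/m kidneys. Col19a1, a rare associated collagen, had 84, 77 and 66 counts in db/db libraries and 5, 0 and 4 in db/m libraries, or 2.94 ± 0.490 CPM in db/db and 0.104 ± 0.0935 CPM in db/m (log2 fold change 4.89, SE 0.68, adjusted p = 0.00331). Col6a6, a later-found alpha chain of microfibrillar type VI collagen, had 41, 31 and 30 counts in db/db libraries and 0 in every db/m library. Against a floor of 3 counts over the db/m group it was at least 43.0-fold higher in db/db (adjusted p = 0.00211). Both calls held under all 15 alternatives, although both genes passed the low-count filter through their db/db counts. Col6a4, whose gene lies in a row with Col6a5 and Col6a6, had 23, 12 and 17 counts in db/db and 2, 0 and 4 in db/m (log2 fold change 3.34, SE 0.76, adjusted p = 0.0201), a call lost without db/db replicate 1 or 3 (adjusted p up to 0.0682). It too passed the low-count filter through its db/db counts. Col6a5 was too low to test, with 22, 12 and 10 counts in db/db and 9, 0 and 6 in db/m. The main type VI chains Col6a1, Col6a2 and Col6a3 were not called, and Col6a3 was at 14.7 ± 4.06 CPM in db/db and 11.5 ± 6.37 CPM in db/m.

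The promoter window of Col6a6 is printed because its gene had counts in every db/db library and none in db/m libraries. It is from RefSeq in GRCm38.p6, with capitals as above, and held 2 GC boxes, which overlap no other motif searched.
Col6a6, chr9:105828036-105828335, minus strand: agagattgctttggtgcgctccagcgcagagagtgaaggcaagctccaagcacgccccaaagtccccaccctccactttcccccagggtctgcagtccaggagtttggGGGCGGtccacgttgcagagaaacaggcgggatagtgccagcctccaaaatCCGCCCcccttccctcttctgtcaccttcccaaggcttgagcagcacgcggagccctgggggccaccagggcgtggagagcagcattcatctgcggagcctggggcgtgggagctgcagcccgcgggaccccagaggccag

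Among the remaining collagens, Col15a1, a multiplexin that links basement membranes to fibrils, was at 28.7, 21.3 and 12.99 CPM in db/db and 3.60, 5.24 and 11.5 CPM in db/m (log2 fold change 1.63, SE 0.46, adjusted p = 0.0398). It was called without db/m replicate 3 or db/db replicate 3 but without no other single library (adjusted p up to 0.118). Col18a1, the other multiplexin and the source of endostatin, averaged 126 ± 15.6 CPM in db/db and 141 ± 34.7 CPM in db/m (adjusted p = 0.549). Col8a1, a network collagen of vessel walls, was lower at 2.93, 2.50 and 2.59 CPM in db/db against 5.31, 4.05 and 6.09 CPM in db/m (-0.94, SE 0.22, adjusted p = 0.0217), kept without db/m replicate 1 or 2 and lost without another library (adjusted p up to 0.0775). The groups did not overlap for Col15a1 or Col8a1.

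Of the 6 glycoproteins, small proteoglycans and cross-linking enzymes, 1 rose. Sparc, a collagen-binding glycoprotein secreted by endothelium and stroma, was at 193, 192 and 144 CPM in db/db and 79.2, 77.6 and 128 CPM in db/m (log2 fold change 0.89, SE 0.22, adjusted p = 0.0254). Fn1, which encodes fibronectin, had 38.5, 27.5 and 21.2 CPM in db/db and 11.2, 12.6 and 22.2 CPM in db/m (0.92, SE 0.31, adjusted p = 0.0672). Lox, the lysyl oxidase that cross-links collagen, had 4.54, 4.32 and 5.69 CPM in db/db and 2.18, 1.67 and 3.57 CPM in db/m (0.97, SE 0.31, adjusted p = 0.0595). Of these, Sparc and Lox showed no overlap, while for Fn1 db/m replicate 3 exceeded the lowest db/db library. Sparc lost its call without replicate 1 or 2 of either group (adjusted p up to 0.0798).

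The small leucine-rich proteoglycans, which bind fibrils and growth factors, were not called. Bgn averaged 193 ± 38.5 CPM in db/db and 132 ± 36.2 CPM in db/m (adjusted p = 0.109), Dcn 33.6 ± 4.72 CPM in db/db and 27.2 ± 7.28 CPM in db/m (adjusted p = 0.29), and Lum 1.20 ± 0.596 CPM in db/db and 1.66 ± 0.989 CPM in db/m (adjusted p = 0.565). Without db/m replicate 3, Bgn (adjusted p = 0.0255) and Fn1 (adjusted p = 0.0181) were called higher, as were Dcn, Hspg2, Lama2, Lox, Adamts2 and Col5a3.

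Replicate 3 of db/m stood apart from the other controls for these genes. It was the highest db/m library for 58 of the 81 tested members (71.6%), beside 34.4% of all tested genes, and db/db replicate 1 was the highest db/db library for 46 (56.8%, beside 33.5%). In contrast, db/db replicate 3 was the highest db/db library for only 13 of the 81 (16.05%, beside 28.4% of all tested genes). The adipocyte markers Adipoq, Plin1, Cidec, Cfd and Lep summed to 133 CPM in db/db replicate 3 and 65.1 CPM in db/m replicate 3. The other libraries had at most 4.78 CPM in db/db and at most 5.12 CPM in db/m. The 6 markers of fibroblasts and pericytes that are not matrix genes summed to 51.4 to 67.5 CPM in db/db and 52.6 to 79.6 CPM in db/m, and were highest in db/m replicate 3. Of those 6, Meox1 rose and Tcf21 fell. Markers of smooth muscle and mesangium summed to 199 to 289 CPM in db/db and 167 to 223 CPM in db/m, with 0 of 6 called by edgeR, 0 at an unadjusted p below 0.05 and 1 called higher by DESeq2. The part of these cells in the matrix results was not tested, beyond the counts without replicates 3 given above.

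Matrix metalloproteinases showed no called change. Of 19 genes, 11 had enough counts to be tested, and edgeR called 0. DESeq2 also called 0, and 0 had an unadjusted p below 0.05. Mmp2, a gelatinase of fibroblasts, had 5.50, 3.49 and 2.96 CPM in db/db and 2.29, 2.48 and 3.74 CPM in db/m (log2 fold change 0.49, SE 0.31, adjusted p = 0.289). Mmp14, the membrane-bound activator of Mmp2, had 19.4, 19.9 and 13.5 CPM in db/db and 12.8, 19.1 and 17.8 CPM in db/m (adjusted p = 0.782). Mmp9, the other gelatinase, stood at 0.522, 0.436 and 0.292 CPM in db/db and 3.38, 0.278 and 0.515 CPM in db/m, and its log2 fold change of -1.71 (adjusted p = 0.216) was 0.095 without db/m replicate 1. The 8 untested metalloproteinases, among them Mmp3, Mmp7 and Mmp8, stayed below 1 CPM in every library.

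Inhibitors of metalloproteinases differed among themselves. Timp3, the inhibitor that binds to matrix and also blocks ADAMTS enzymes, was at 1698, 1519 and 1332 CPM in db/db and 954, 1034 and 1046 CPM in db/m. It was higher in all db/db libraries, and its change of 0.58 on the log2 scale (SE 0.11, adjusted p = 0.0115) stayed called without any single library (adjusted p up to 0.0411). Of the 15 alternatives 2 ended the call, among them total counts only (0.32, adjusted p = 0.067). Timp3 lies inside Syn3 on the opposite strand, and Syn3 was at 13.2 ± 2.12 CPM in db/db and 9.28 ± 1.38 CPM in db/m, far below Timp3. Timp2 had 48.1 ± 6.65 CPM in db/db and 52.6 ± 14.0 CPM in db/m (adjusted p = 0.649). Timp1, an inhibitor that is induced in injured kidney, was near the detection floor at 0.642, 0.792 and 0.365 CPM in db/db and 0.218, 0.456 and 1.13 CPM in db/m, with no stable direction. Timp4 reached 1.10 CPM in db/db replicate 3 and 5.18 CPM in db/m replicate 3, the libraries with most adipocyte markers, and was not called (adjusted p = 0.176).

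Of 13 tested ADAMTS proteases edgeR called 2 higher and 0 lower. Adamts4 was the 1 lower at an unadjusted p below 0.05 and the 1 called lower by DESeq2. Adamts15, a protease that cleaves large proteoglycans such as versican and aggrecan, had 28.5, 34.1 and 25.6 CPM in db/db and 8.87, 10.2 and 15.6 CPM in db/m (log2 fold change 1.34, SE 0.22, adjusted p = 0.00647), and its call held under all 15 alternatives. Adamts9, which also cleaves versican, was at 18.3, 14.7 and 13.5 CPM in db/db and 9.92, 8.23 and 10.3 CPM in db/m (0.71, SE 0.16, adjusted p = 0.0199). Neither showed overlap, and Adamts9 lost its call without db/m replicate 2 or db/db replicate 1 (adjusted p up to 0.0674). Adamts4, an aggrecanase, had 1.20, 0.396 and 0.511 CPM in db/db and 1.49, 1.75 and 3.28 CPM in db/m (adjusted p = 0.0552). Adamts1, an early-response protease, ranged from 24.4 to 70.8 CPM in db/db and from 30.8 to 58.4 CPM in db/m (adjusted p = 0.969). Adamts13, which cleaves von Willebrand factor, was too low to test by the filter, with 0 counts in every db/db library and 27, 10 and 7 in db/m, at least 11.6-fold lower in db/db against a floor of 3 counts over the group.

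Levels of different genes were compared per length, as CPM per kilobase of GENCODE M21 exon. Timp3 was highest at 186 ± 22.4 in db/db and 124 ± 6.15 in db/m on that scale, followed by Sparc at 46.6 ± 7.39 in db/db and 25.1 ± 7.62 in db/m. The type IV chains Col4a1, Col4a2, Col4a3 and Col4a4 stood close together, at 16.3 to 23.3 in db/db and 9.97 to 15.4 in db/m. Col4a5 was well below them, at 3.09 ± 0.277 in db/db and 3.49 ± 0.724 in db/m. In db/m kidneys the order from Col4a2 down to Col4a3 rested on gaps similar to the SDs, and exon lengths include untranslated ends, so the order of near neighbours is approximate. Col1a1, Col1a2 and Col3a1 were at 2.48 to 3.48 in db/db and 1.01 to 2.02 in db/m, below Col4a1, Col4a2, Col4a3 and Col4a4 in both groups. In db/db that range took in Col4a5. Col4a6 was lower than these fibrillar chains in both groups, at 0.27 ± 0.19 in db/db and 0.51 ± 0.16 in db/m.

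**Figure D4:**
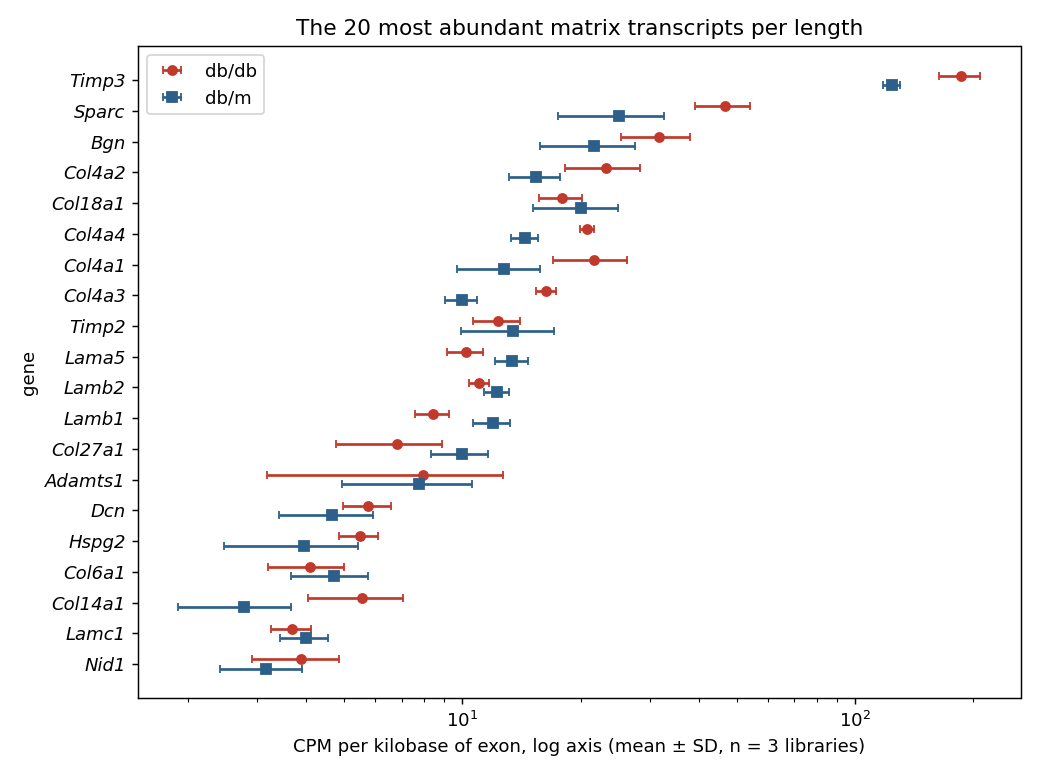
Mean CPM per kilobase of exon with SD over 3 libraries, on a log axis, for the 20 matrix genes with the highest mean over both groups, db/db as circles above db/m as squares. Timp3 leads, and Col4a1 to Col4a4 lie together at 16.3 to 23.3 in db/db.

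Other genes of the matrix pathway, 117 symbols for collagen folding, cross-linking, receptors, further matrix proteins and protease regulators were described as a group. Of 112 tested, 9 rose and 7 fell (14.3% in all, beside 24% of all tested genes). In collagen folding, 2 of 17 rose and 2 fell. Crtap, a subunit of the collagen prolyl 3-hydroxylation complex, was at 63.0 ± 2.80 CPM in db/db and 31.9 ± 4.84 CPM in db/m (log2 fold change 0.98, SE 0.12, adjusted p = 0.00207), and P4hb, the protein disulfide isomerase that is also a prolyl 4-hydroxylase subunit, had 0.41 (SE 0.08, adjusted p = 0.0138). P3h2, a prolyl 3-hydroxylase of basement membrane collagen, was at 87.5 ± 11.2 CPM in db/db and 147 ± 12.996 CPM in db/m (-0.75, SE 0.12, adjusted p = 0.00541), and Colgalt2, a collagen galactosyltransferase, had -0.80 (SE 0.14, adjusted p = 0.00797). Furin, a proprotein convertase, was the 1 of 9 called for cross-linking and procollagen cleavage (0.44, SE 0.08, adjusted p = 0.00766).

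Receptors of the matrix gave 1 rise and 3 falls among 25. The proteoglycan gene Sdc2 rose, at 113 ± 11.8 CPM in db/db and 59.8 ± 5.53 CPM in db/m (0.92, SE 0.11, adjusted p = 0.00191). The laminin receptor genes Itga6 and Itgb4, whose products pair in epithelial anchoring junctions, fell, Itga6 to 28.8 ± 6.94 CPM in db/db against 61.0 ± 9.23 CPM in db/m (-1.08, SE 0.19, adjusted p = 0.0076) and Itgb4 too (log2 fold change -1.01, SE 0.26, adjusted p = 0.0308). Sdc1, an epithelial syndecan, had -0.86 (SE 0.22, adjusted p = 0.031). Further matrix proteins gave 2 rises among 40. These were Fmod, the fibril-binding proteoglycan fibromodulin (1.40, SE 0.21, adjusted p = 0.00466), and Ltbp4, a binder of latent TGF-beta (1.30, SE 0.22, adjusted p = 0.0073). Among protease regulators 3 of 21 rose and 2 fell, with Adam15, Htra1 and Adamtsl2 higher by 0.47, 0.70 and 0.73 and Serpine2 and Adam17 at -0.87 and -0.45 on the log2 scale (adjusted p from 0.015 to 0.0444). Crtap, P3h2, Colgalt2, Furin, Sdc2, Itga6, Fmod and Ltbp4 stayed called when any single library was left out. The other 8 pathway calls, P4hb, Itgb4, Sdc1, Adam15, Adam17, Htra1, Adamtsl2 and Serpine2, each ended without at least 1 library (adjusted p up to 0.131 for Adamtsl2).

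Calls differed in how far they depended on the settings. Of the 18 members that rose, 7 stayed called without any single library, namely Adamts15, Col19a1, Col4a3, Col4a4, Col5a2, Col6a6 and Timp3, and all of these but Col4a4 and Timp3 stayed called under all 15 alternatives. Of the 6 that fell, Col12a1 did. DESeq2 called all 24 and 9 more, among them Bgn, Col1a2, Col3a1, Fn1, Lama2 and Lox higher and Adamts4 and Col27a1 lower. With DESeq2, 29.6% of the tested members were higher and 11.1% lower, beside 16.2% and 13.3% of all tested genes.

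**Figure D5:**
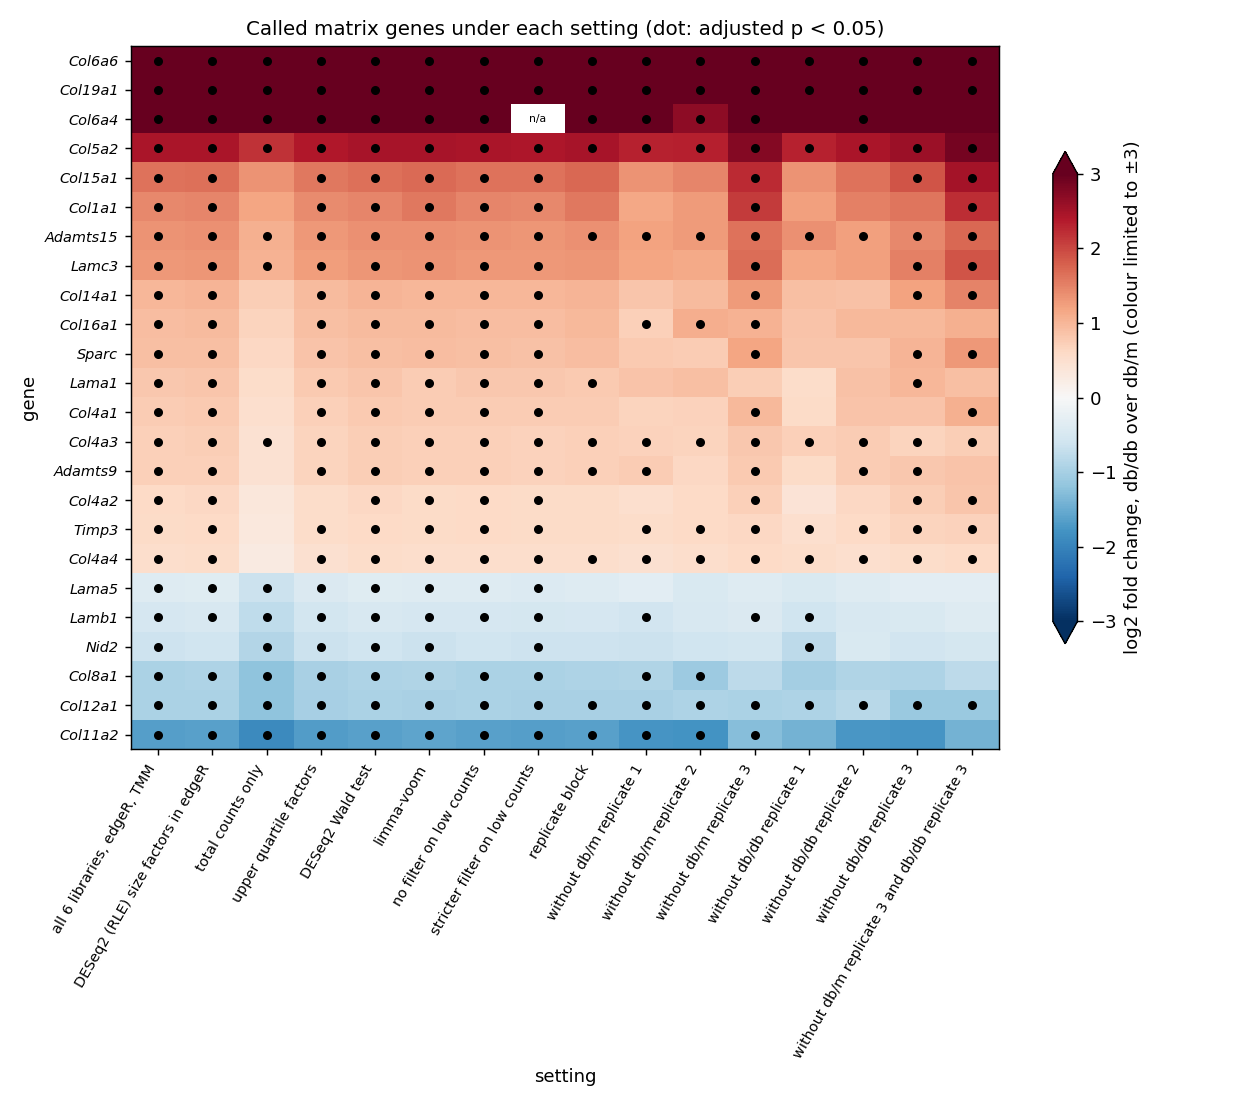
Log2 fold change, db/db over db/m, of the 24 called members (down the page) under each setting (across), in colour limited to 3 in either direction, with a dot where the adjusted p was below 0.05. Signs are the same across settings, while dots thin out with total counts only, the replicate block and most left-out libraries. Col6a4 could not be fitted under the stricter filter.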

How the data were processed

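The authors deposited raw counts by gene symbol, with 1 column for each library, and columns were matched to libraries by their titles. Per the labels' protocols, libraries were strand-specific and made from oligo(dT)-selected RNA. The submitters' processing notes name fastp, FastQC, HISAT2, SAMtools, StringTie and DESeq2. The sources used here state no versions, genome build or counting settings. Totals were 25937756 to 35931140 counts per library. Members and lists were chosen with earlier results of these data known.

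After edgeR's filterByExpr, 16373 genes were tested, 81 of them members. With TMM factors, db/db was compared with db/m by the edgeR 4.0.16 quasi-likelihood test in R 4.3.3 with no covariate, Benjamini-Hochberg adjustment over all tested genes and a call at 0.05. The SE is the absolute log2 fold change divided by the square root of F. The script was tested on simulated data, with the spread taken from the trend over all genes. It recovered 22% of 1.5-fold, 72% of 2-fold and 100% of 4-fold changes, with 3 false calls among 150. A gene that was not called may thus still differ by 1.5-fold to 2-fold, and by more where its spread exceeds that trend. Col3a1, for example, was not called although its db/db mean was 2.46-fold its db/m mean. Named in full were called members with an average log2 CPM of at least 0, a list of members taken from background knowledge of kidney matrix, and, in each pathway role, the 3 called genes with the smallest p in each direction. Other members, such as Col6a4, Col6a6, Col5a1, Col27a1, Lamb3, Timp4, Adamts1, Adamts4 and Adamts13, were named after their values were seen. Libraries of 1 group differed by more than sampling noise, with chi-square over its degrees of freedom at 16.8 to 66.3 for each pair, so none were merged. Exon lengths were unions of GENCODE M21 exons, and promoters came from RefSeq. Alternatives were other scalings and filters, DESeq2 1.42.0, limma-voom (limma 3.58.1), a replicate block and left-out libraries. 1 matrix gene and 1 podocyte marker are not reported here.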

Additional observations from a re-analysis of the deposited data

How the results depend on the processing

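None of the 24 called members changed sign under the 15 alternatives, wherever it could be fitted, but counts of calls moved, and the cause was not tested. Scaling by total counts gave 7 members higher and 11 lower, and 4 other pathway genes higher and 26 lower. Of all tested genes, 6.55% were higher and 29.8% lower under that scaling, and their median moved from -0.06 to -0.32. DESeq2 called 16 other pathway genes higher and 15 lower, beside 16.2% and 13.3% of all tested genes. Same-numbered db/db and db/m libraries had correlations of deviations of -0.15, 0.06 and 0.14 over 16373 genes. Not every library correlated best with its own number. The sources used here do not say whether a shared number marks a litter or day, and correlations over 3 libraries per group cannot decide it. With the replicate number as a block, 9 members were higher (11.1%, beside 8.02% of all tested genes) and 2 lower (2.47%, beside 5.94%). Of the other pathway genes, 5 were higher under the block, beside the same 8.02% of all tested genes. Timp3 was among the calls that ended under the block. Leaving out 1 library gave 7 to 27 members higher, or 8.64% to 32.9% beside 8.15% to 11.97% of all genes, with no excess over all genes without db/db replicate 1. It gave 2 to 5 members lower, or 2.44% to 6.10% beside 5.10% to 9.11% of all genes, and 6 to 17 other pathway genes higher and 4 to 11 lower. Without replicate 3 of both groups 1 member was lower, and 16 other pathway genes were higher and 3 lower, beside 6.40% and 4.02% of all tested genes. DESeq2 size factors or upper quartile factors in edgeR, limma-voom and both other filters left each count of members within 1.5 times. Signs turned for some uncalled genes (log2 fold changes, with an adjusted p of 0.239 or more in each fit that turned a sign). Timp1 was 0.0059 with DESeq2 size factors, 0.0097 with DESeq2, 0.21 with limma-voom, 0.18 with the replicate block, -0.37 to 0.79 when 1 library was left out and 1.05 without both replicates 3. Mmp14 was -0.18 with total counts only and -0.054 to 0.25 when 1 library was left out. On leaving out 1 library, Mmp9 was -2.21 to 0.095, Col4a5 -0.26 to 0.015, Timp2 -0.24 to 0.12, Lamc1 -0.21 to 0.0032 and Lum -0.69 to 0.16. Without both replicates 3 Mmp14 was 0.30, Timp2 0.20 and Lamc1 0.067. At this depth the 22 members left untested had at most 0.981 CPM in any library.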
